A study of Mus musculus with 6 samples.

Results

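Cluster 2 of the authors' 5 clusters of fetal mouse testicular germ cells held the highest replication-dependent histone mRNA of the 5. Its members are the barcodes with cluster number 2 in the deposited annotation, 640 of 5160 barcodes in all, and no gene's value was used to pick them beyond the authors' own clustering. The clusters carry numbers and no cell type names. The 3 markers given for this one, the linker histones Hist1h1e and Hist1h1b and the histone variant H2afx, were each higher in it than in the sum of the other 4 clusters in 6 of 6 samples.

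The samples were 3 control libraries, labelled wildtype, and 3 Rb1 cKO libraries, in which the retinoblastoma gene Rb1 was knocked out conditionally. All were male embryos at embryonic day 14.5 on a mixed C57/B6 and 129 background. Live tdTomato+ cells were sorted, and 3′ libraries with unique molecular identifiers (UMIs) were made with 10x Genomics v2 chemistry, which primes on poly(A). The Cre driver and the deleted exons were not given in the sources used here. The labels do not say that replicates came from separate animals, and a p-value then covers just the differences among these 6 libraries, whose source may be technical.

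At this age male germ cells are moving from the mitotic cycle towards a long arrest. Replication-dependent histone genes are transcribed mainly in S phase to package newly copied DNA, and their mRNAs are unusual in ending at a conserved stem-loop instead of a poly(A) tail. The stem-loop binding protein, encoded by Slbp, processes and protects these mRNAs, which are degraded when replication ends. The retinoblastoma protein binds E2F transcription factors, which drive genes for origin licensing and DNA synthesis.

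Because the assay primes on poly(A), the 3′ ends of the histone genes bear on what was counted. Stem-loops with 5 flanking bases on each side are shown for 1 gene of each histone class and for H2afx, 5′ to 3′, with the 16 bases of the stem-loop in capitals. They were read from GENCODE M21 transcripts on GRCm38, the assembly that mm10 names.
Hist1h1e (H1; chr13:23621782-23621797, minus strand): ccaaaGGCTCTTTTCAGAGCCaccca
Hist2h2ac (H2A; chr3:96220418-96220433, minus strand): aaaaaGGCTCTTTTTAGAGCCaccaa
Hist1h2bm (H2B; chr13:21722506-21722521, plus strand): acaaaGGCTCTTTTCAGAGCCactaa
Hist1h3e (H3; chr13:23561903-23561918, minus strand): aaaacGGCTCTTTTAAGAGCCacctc
Hist1h4d (H4; chr13:23581950-23581965, plus strand): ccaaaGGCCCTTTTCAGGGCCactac
H2afx (variant; chr9:44335240-44335255, plus strand): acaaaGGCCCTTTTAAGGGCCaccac

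Each loop lies in the 3′ UTR, 40 bases after the stop codon in Hist1h1e and 46 in H2afx. The annotated transcript goes on past the loop in each gene shown, by 1153 bases in Hist1h1e, 822 in H2afx and 46 in Hist1h2bm. Of the 36 replication-dependent histone genes with at least 5 CPM (UMIs of a gene divided by the UMIs of its library and scaled to 1000000) in cluster 2 or in the other clusters, 35 matched the annotation by symbol, and 25 of these held the motif. The genes with the motif had a median log2 ratio of 1.39 between cluster 2 and the other clusters, and the 10 without it had 1.55. Some of the 10 have short annotated transcripts, of 393 bases in Hist1h2ak and 381 in Hist1h2bl, and Hist1h2al is annotated as a processed pseudogene. Whether such transcripts include the 3′ UTR was not checked. A missing motif there does not show that the gene lacks a stem-loop, and the 2 medians do not compare kinds of 3′ end. Among annotated transcripts of other genes, 0.0423% held the motif. Which of the 2 ends the counted molecules had cannot be read from a table of UMIs.

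Promoters are shown for a histone gene of each of 2 classes high in cluster 2, and for Cdc6, among the lowest genes there. Each window holds 250 bases before and 50 after the start, from RefSeq on GRCm38.p6, 5′ to 3′ on the gene's strand. Capitals mark matches, on either strand, to the CCAAT box, the TATA box (TATAAA), the H1 box (AAACACA), the H2B octamer (ATTTGCAT) and a pair of E2F-type sites (TTTCCCGC or TTTGGCGC), which do not overlap one another in these windows.
Hist1h1e (chr13:23622509-23622808, minus strand): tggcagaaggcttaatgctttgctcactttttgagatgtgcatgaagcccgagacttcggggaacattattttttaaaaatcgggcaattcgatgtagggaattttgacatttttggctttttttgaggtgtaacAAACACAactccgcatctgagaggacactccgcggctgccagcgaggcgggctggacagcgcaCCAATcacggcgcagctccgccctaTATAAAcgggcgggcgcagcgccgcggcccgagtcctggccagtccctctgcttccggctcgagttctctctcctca
Hist1h2bm (chr13:21721794-21722093, plus strand): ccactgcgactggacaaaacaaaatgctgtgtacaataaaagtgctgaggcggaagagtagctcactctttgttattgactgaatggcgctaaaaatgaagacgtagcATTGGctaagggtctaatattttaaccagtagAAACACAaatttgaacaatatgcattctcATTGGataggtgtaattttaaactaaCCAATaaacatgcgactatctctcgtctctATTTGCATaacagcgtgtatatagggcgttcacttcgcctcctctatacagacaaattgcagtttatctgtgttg
Cdc6 (chr11:98907901-98908200, plus strand): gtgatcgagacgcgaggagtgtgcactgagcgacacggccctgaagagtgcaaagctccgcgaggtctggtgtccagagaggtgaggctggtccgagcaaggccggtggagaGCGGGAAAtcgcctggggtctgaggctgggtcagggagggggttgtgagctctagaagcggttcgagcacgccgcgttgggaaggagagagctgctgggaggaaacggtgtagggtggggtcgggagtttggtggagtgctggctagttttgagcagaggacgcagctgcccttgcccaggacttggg

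The Hist1h1e window held AAACACA 115 bases, CCAAT 52 bases and TATAAA 27 bases before the start. Of the 69 replication-dependent histone genes in the table, 61 had a promoter entry. CCAAT was found in 52 of the 61, against 37.4% of all 32851 promoter windows of the same length. H4 promoters differed from the other classes in this, with CCAAT in 3 of 12, and every H1, H2A, H2B and H3 window held it. TATAAA was found in 35, against 13.6% of all windows. AAACACA, known as the H1 box, was in 5 of the 6 H1 promoters against 7.18% of all, and the octamer ATTTGCAT was in 6 of 16 H2B and 7 of 17 H2A promoters against 1.74%. The E2F-type letters TTTCCCGC were in the Cdc6 window, on the reverse strand, and in 1 of the 61 histone windows, against 1.07% of all. TTTGGCGC was in 0 of 61, against 0.51%. With letters this rare, 61 windows cannot show a difference from all windows, and other forms of the E2F site were not searched. GENCODE M21 starts the Cdc6 gene at 98907801, before the whole Cdc6 window, so that window depends on the RefSeq start used.

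Cluster 2 had 75, 45 and 178 barcodes in controls 1 to 3 and 65, 135 and 142 in cKO samples 1 to 3. Its summed UMIs per sample ran from 886911 to 2538937. Median UMIs per barcode ran from 13956 to 19270 in cluster 2 and from 12593 to 17429 in the other clusters, and were higher in cluster 2 in 6 of 6 samples. Scrublet called 3.59% of its barcodes doublets, against 2.54% of the others. In all, 9 barcode sequences occurred in more than 1 library, and 6 barcodes of cluster 2 carried one of them. The histone sum differed little without them, with a log2 ratio of 1.57.

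The cells carried germ cell markers at the level of the rest of the sort. The 12 germ cell markers, among them Dazl, Ddx4 and Dppa5a, summed to 10193 ± 377 CPM in cluster 2 and 10264 ± 428 in the other clusters (SD, n = 6). Sertoli markers summed to 3.38 to 24.03 CPM over the 6 samples, fetal Leydig markers to 0 to 3.15, interstitial stroma to 2.76 to 9.02, peritubular myoid to 0 to 2.51 and macrophage markers to 1.504 to 7.88. No UMI was found in cluster 2 for 1 of 10 Sertoli markers (Fshr), 3 of 7 fetal Leydig markers (Insl3, Hsd3b1 and Hsd3b6), 3 of 9 stroma markers (Tcf21, Dcn and Lum), 2 of 5 myoid markers (Myh11 and Tagln) and 2 of 10 macrophage markers (Csf1r and Ptprc). Endothelial markers summed to 36.1 to 69.7 CPM and erythroid markers to 7.86 to 35.4. The endothelial mean was 52.3 CPM against 57.6 in the other clusters, and its highest member, Pecam1, had 38.4 CPM over the pooled cluster 2. The epithelial list, whose highest member Epcam is also expressed by germ cells, summed to 360 CPM against 454 in the other clusters.

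H1 linker histones were the replication-dependent class with the highest sum. Hist1h1e, on chromosome 13 from 23620629 to 23622558, had 229, 173 and 150 CPM in cluster 2 of control samples, and 205, 197 and 210 CPM in the cKO samples. The other clusters of the same samples lay between 40.8 and 52.7 CPM, so no sample overlapped. The mean was 194 ± 28.5 CPM against 46.7 ± 4.70, a log2 ratio of 2.03 ± 0.23 (SD, n = 6). Cluster 4 came nearest with 122 CPM, followed by 66.4 in cluster 0, 51.8 in cluster 3 and 18.6 in cluster 1, and cluster 2 was above each of them in 6 of 6 samples.

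Hist1h1b, on chromosome 13 from 21779883 to 21780625, had 266, 227 and 215 CPM in controls, and 231, 247 and 254 CPM in the cKO samples, against 61.6 to 92.3 CPM in the other clusters. Its log2 ratio was 1.66 ± 0.30. Here cluster 2 was above cluster 4, at 196 CPM, in 5 of 6 samples and above clusters 0, 1 and 3 in all 6.

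H2afx, on chromosome 9 from 44334694 to 44336077, encodes the H2A variant phosphorylated at DNA breaks. It had 482, 355 and 367 CPM in controls, and 458, 403 and 399 CPM in the cKO samples, with 165 to 194 CPM in the other clusters. The log2 ratio was 1.18 ± 0.12, the least variable of the 3 markers. No test is given for any of these differences, since the clusters were made from the same counts.

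**Figure D1:**
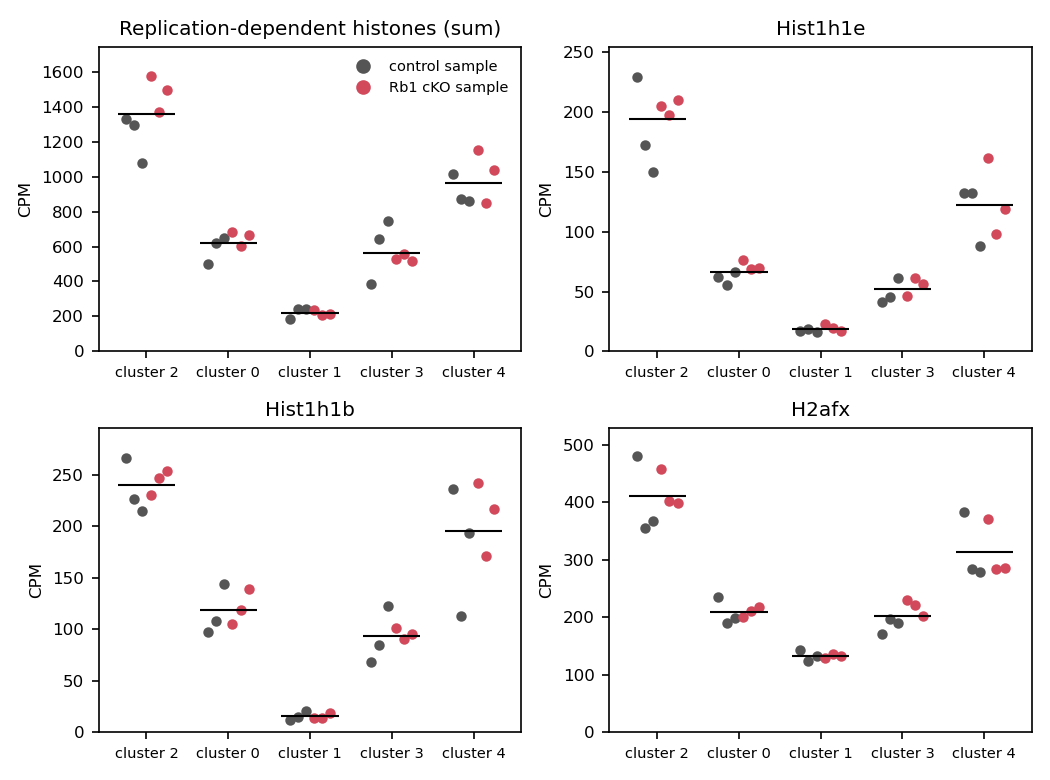
CPM of the summed replication-dependent histones and of Hist1h1e, Hist1h1b and H2afx (vertical axes, from 0) in each author cluster (horizontal axis); each point is 1 sample, grey for control and red for Rb1 cKO, and lines are means of 6 samples. Cluster 2 had the highest mean in each panel, cluster 4 the next and cluster 1 the lowest.

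The 25 genes with the highest ratio, among those at 20 CPM or more and higher in 6 of 6 samples, comprised 17 histone genes and 8 others. Histone genes filled the first 17 places. They were 14 Hist1 genes between 21722044 and 23764406 on chromosome 13, both listed Hist2 genes and H2afx. After Hist2h2bb.1, a symbol with a suffix in the deposited table, at 2.37 ± 0.69, the largest log2 ratios were 2.10 ± 0.38 for Hist1h2bm, 2.06 ± 0.35 for Hist1h1d and 1.94 ± 0.27 for Hist1h3e. Hist1h2bm had 43.4 ± 16.5 CPM against 9.35 ± 1.58, and Hist1h3e had 79.6 ± 18.7 against 20.1 ± 3.54. For Hist2h2ac, Hist1h2ae, Hist1h1c and Hist1h2ap, cluster 2 was above cluster 4 in 3 of 6 samples. For the other histone genes of this list it was above cluster 4 in at least 5 of 6. Several Hist1 genes are near-identical copies, so counts may be split or lost between them, and the value of a single gene is less certain than the sum.

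Summed over all 69 replication-dependent histone genes, cluster 2 had 1356 ± 172 CPM and the other clusters 458 ± 46.4, a log2 ratio of 1.56 ± 0.23, higher in 6 of 6 samples. By cluster the sums were 965 ± 124 CPM in cluster 4, 621 ± 64.7 in cluster 0, 563 ± 123 in cluster 3 and 221 ± 23.4 in cluster 1. The means of clusters 0 and 3 differ by less than the spread between samples. Of the 36 genes at 5 CPM or more, 28 were higher in cluster 2 in 6 of 6 samples, while 10.4% of the 8623 genes at that level were, and 31 were at least 2-fold higher on average, against 0.51% of genes. Their median log2 ratio was 1.47, against -0.02 over all genes. As these counts made the clusters, the shares are a description.

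All classes took part. H1 genes summed to 615 ± 65.9 CPM, 45.4% of histone UMIs in cluster 2, with a log2 ratio of 1.79 ± 0.27. H3 genes had a ratio of 1.69 ± 0.21, H2A 1.36 ± 0.16, H2B 1.31 ± 0.41 and H4 1.21 ± 0.33. H1 mRNA stood at 438 CPM in cluster 4 and 63.7 CPM in cluster 1.

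Of the 36 genes at 5 CPM or more, 2 had a negative mean and are named after their values were seen. Hist1h2bc had 7.18 CPM in cluster 2 and 15.4 in the others, a log2 ratio of -1.18 ± 1.01, lower in 5 of 6 samples, and its annotated transcript holds no stem-loop. Hist1h4i had 17.4 and 18.8 CPM, a ratio of -0.12 ± 0.29, and its transcript does hold one.

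Replacement histones, which are made outside S phase as well and have polyadenylated mRNA, had smaller ratios, apart from H2afx. H3f3b, the gene of most counts among them, had a log2 ratio of 0.28 ± 0.08 and H2afz 0.10 ± 0.08, both higher in 6 of 6 samples. H3f3a was near level at -0.0048 ± 0.077. Cenpa, the centromeric H3 variant, was lower in 6 of 6 samples, with 173 ± 36.9 CPM against 266.

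Of 15 histone mRNA processing genes at 5 CPM or more, 1 was higher in 6 of 6 samples (10.4% of all genes), Slbp. It had 590 ± 63.1 CPM in cluster 2 and 504 in the others. Cluster 0 had more Slbp, 611 CPM, and cluster 1 had 367. Npat, the activator of histone gene transcription, had a log2 ratio of 0.01 ± 0.19. Casp8ap2, a cofactor of histone gene expression, was the 1 lower in 6 of 6 samples (12.5% of all genes), at -0.27 ± 0.09. Of 19 histone chaperone and chromatin assembly genes, 4 were higher in all 6 samples (10.4% of all genes), among them the histone-binding Hirip3 with a log2 ratio of 0.58 ± 0.22, and 2 were lower (12.5%), Npm1 at -0.15 ± 0.03 and Hmgb3 at -0.21 ± 0.04.

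**Figure D2:**
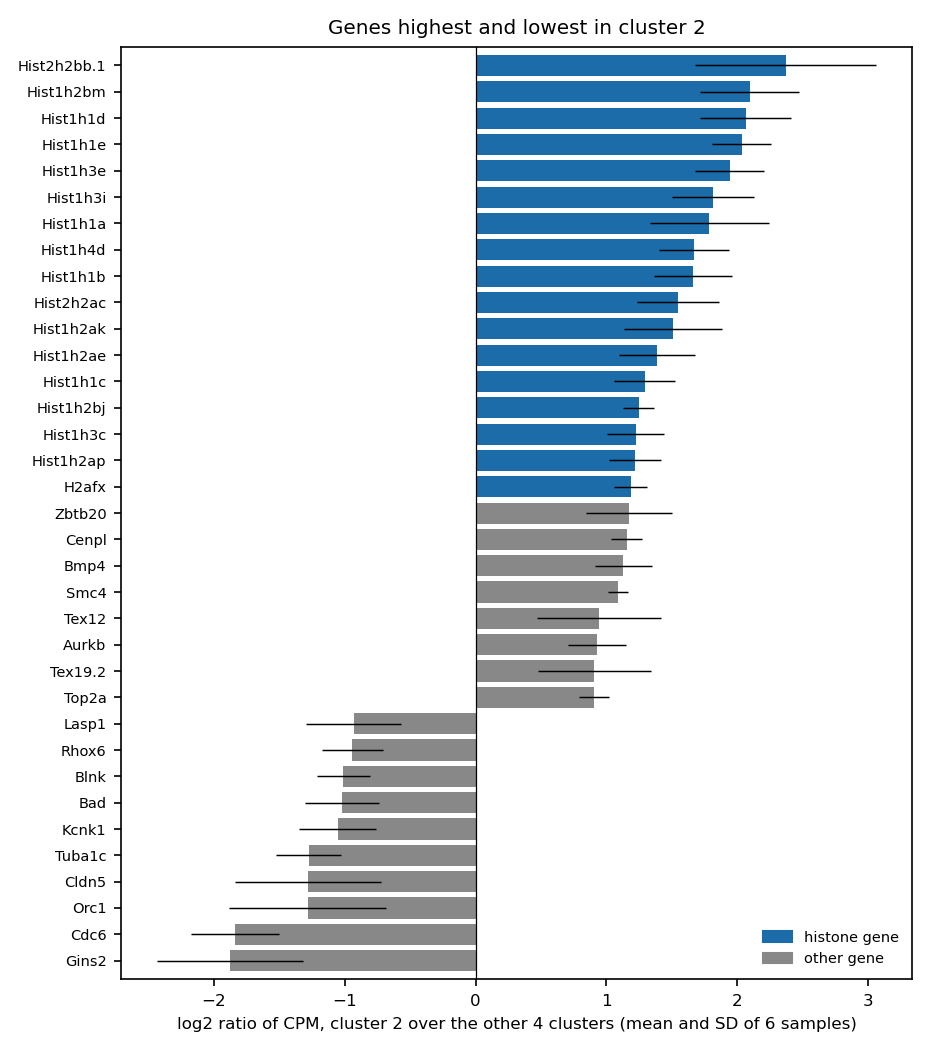
Log2 ratio of CPM in cluster 2 over the other 4 clusters (horizontal axis, mean and SD over 6 samples) for the 25 highest and 10 lowest genes (vertical axis), with histone genes in blue. The 17 highest are histone genes, and Gins2 and Cdc6, both of origin licensing and firing, are the lowest.

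The 8 other genes of the top 25 were led by Zbtb20, a zinc finger repressor, at 1.17 ± 0.33, and Cenpl, a kinetochore component, at 1.16 ± 0.12. Chromosome condensation was represented by Smc4, a condensin ATPase, with 350 ± 45.3 CPM against 164 (1.09 ± 0.07), and by Top2a, topoisomerase II alpha, with 653 ± 85.9 CPM against 349 (0.91 ± 0.11). Aurkb, the kinase of the chromosomal passenger complex, had a log2 ratio of 0.93 ± 0.22. It stood at 78.6 CPM in cluster 2 and 76.8 in cluster 4, and cluster 2 was above cluster 4 in 3 of 6 samples. The signalling ligand Bmp4 had 37.8 ± 6.39 CPM against 17.0, at 1.13 ± 0.22. Tex12, of the synaptonemal complex, and the germ cell gene Tex19.2 were at 0.95 ± 0.47 and 0.91 ± 0.43.

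A few origin licensing genes were among the lowest. Gins2, a subunit of the helicase activator GINS, had 10.1 ± 3.50 CPM against 36.8, a log2 ratio of -1.88 ± 0.56. Cdc6, which loads the MCM helicase, had 11.9 ± 2.52 CPM against 43.2 (-1.84 ± 0.34), and Orc1, of the origin recognition complex, had 10.0 ± 3.66 against 23.6 (-1.28 ± 0.60). Cdt1, the partner of Cdc6, was also lower in 6 of 6 samples, with 50.2 ± 6.09 CPM against 80.8, as were 12.5% of genes at 5 CPM or more. Other licensing genes were near level: Mcm2 had a ratio of 0.02 ± 0.08 and Mcm7 of 0.01 ± 0.11, and Mcm6 was higher in 6 of 6 samples at 0.18 ± 0.09. Over the 22 genes of the group, 1 was higher (10.4% of all genes) and 5 were lower in all 6 samples, and the sum was 2053 ± 90.4 CPM against 2083 ± 126. Cluster 4 came nearest for Gins2, Cdc6 and Orc1, at 19.3, 24.5 and 14.0 CPM. Cluster 2 was above cluster 4 in 0, 2 and 1 of 6 samples for these genes.

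The remaining lowest genes have other roles. They were Tuba1c, an alpha tubulin, with 33.2 ± 11.1 CPM against 79.0, the tight junction gene Cldn5, the potassium channel gene Kcnk1, the apoptosis gene Bad, the adaptor gene Blnk, the homeobox gene Rhox6 and the actin-binding gene Lasp1, with log2 ratios between -1.28 and -0.93. Blnk and Tuba1c were highest in cluster 1, at 68.6 and 115 CPM.

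Replication fork genes were higher, in contrast. Of 20, 14 were higher in 6 of 6 samples (10.4% of all genes) and 0 were lower (12.5%), and the sum was 3076 ± 130 CPM against 2636 ± 150, a log2 ratio of 0.22 ± 0.09. Prim1, the primase subunit, was at 0.55 ± 0.09, Pold3, of DNA polymerase delta, at 0.46 ± 0.25, and Pcna, the sliding clamp, at 0.32 ± 0.11. Against cluster 0, whose fork sum was 2977 ± 174 CPM, the difference was within the spread between samples.

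Condensins, cohesins and topoisomerase II genes summed to 2668 ± 158 CPM against 1948 ± 108 (0.45 ± 0.04), with 9 of 15 higher in 6 of 6 samples (10.4% of all genes) and 0 lower (12.5%). The cohesin core gene Smc1a had a log2 ratio of 0.65 ± 0.07 and the cohesin subunit Stag1 of 0.44 ± 0.06. Rad21, the cohesin subunit cut at anaphase, had -0.16 ± 0.13. Cluster 2 had the highest sum of the 5 clusters, before 2201 ± 158 CPM in cluster 4.

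Mitotic entry and exit genes went both ways, 6 of 23 higher (10.4% of all genes) and 10 lower (12.5%) in 6 of 6 samples. The higher ones included the kinase genes Cdk1 (0.62 ± 0.07) and Plk1 (0.75 ± 0.19) and the kinesin gene Kif23 (0.65 ± 0.30). The lower ones included Ccnb1, cyclin B1, with 238 ± 21.8 CPM against 354, Cdc20, an activator of the anaphase-promoting complex, with 139 ± 10.4 against 240, and Ube2c, its ubiquitin-conjugating enzyme, with 342 ± 29.4 against 537. Cluster 1 had far more of these, 557, 442 and 812 CPM, and cluster 0 had 198, 81.6 and 325 CPM. The summed level of the group was 3263 ± 187 CPM in cluster 2, between 5485 ± 257 in cluster 1 and 2739 ± 148 in cluster 0.

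**Figure D3:**
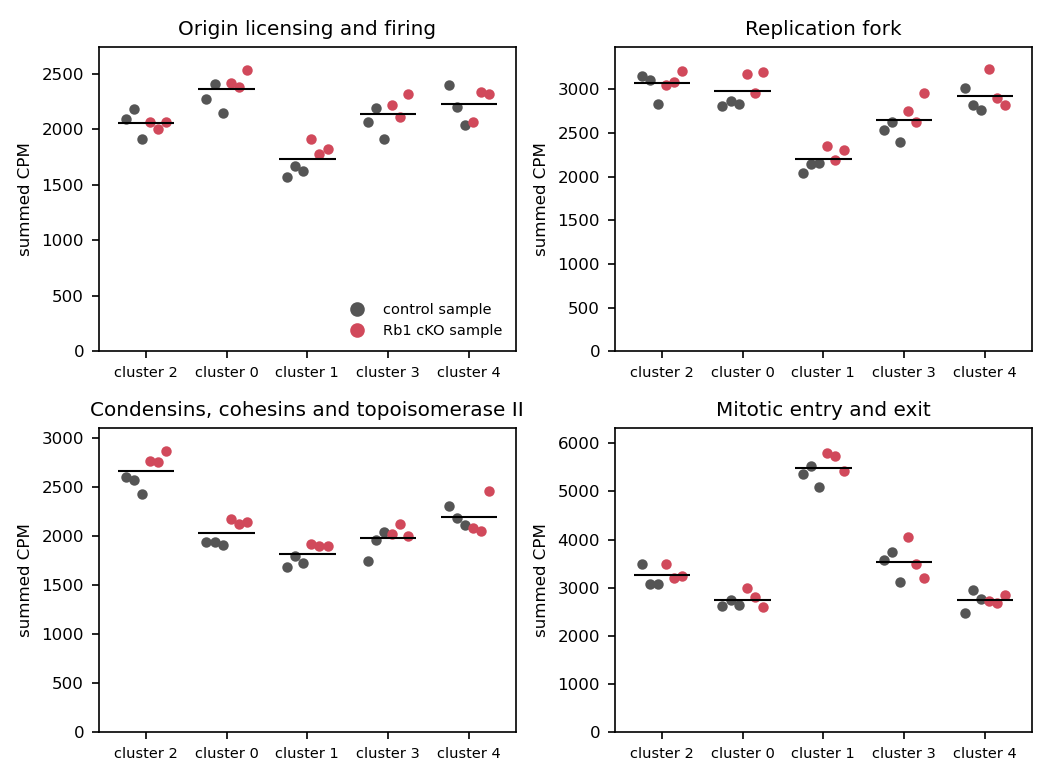
Summed CPM (vertical axes, from 0) of 4 groups of cell-cycle genes in each author cluster (horizontal axis); points are samples, grey for control and red for Rb1 cKO, and lines are means of 6. Cluster 2 has the highest mean for condensins, cohesins and topoisomerase II (2668 CPM) and lies between clusters 0 and 1 for mitotic entry and exit (3263 CPM).

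On the published S phase and G2/M lists, cluster 2 lay between the 2 large clusters. The S phase list summed to 6737 ± 399 CPM, with 7387 ± 519 in cluster 0 and 5071 ± 431 in cluster 1. The G2/M list summed to 10170 ± 374 CPM, with 8464 ± 375 in cluster 0 and 11559 ± 356 in cluster 1. Across genes at 20 CPM or more, log2 mean CPM in cluster 2 correlated most with cluster 0 (Pearson r = 0.988 over 5132 genes) and least with cluster 4 (0.966), where genes are not independent replicates. Against cluster 0, 25 genes were at least 2-fold higher and 8 lower, against cluster 1 33 and 24, and against cluster 4 137 and 104. Cluster 4 is small, with 10 to 27 barcodes and 123837 to 329844 summed UMIs per sample, where cluster 0 had 3110738 to 7857361 UMIs. How far this low depth sets the lower r and the larger counts of genes was not tested.

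The meiosis list had 7 of 20 genes higher in 6 of 6 samples (10.4% of all genes) and 0 lower (12.5%), and a sum of 1088 ± 96.0 CPM against 907 ± 80.9. Smc1b, the meiotic cohesin, had a log2 ratio of 0.47 ± 0.10, and Syce1, of the synaptonemal complex, of 0.67 ± 0.11. Stra8, the gatekeeper of meiotic entry, was at 2.77 ± 2.65 CPM against 7.15.

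Genes that varied most like the markers over the 30 libraries (5 clusters in 6 samples) were again histones and Smc4. For Hist1h1e these were H2afx (r = 0.965), Hist1h1a (0.957), Smc4 (0.948), Hist1h1b (0.941) and Hist1h2ak (0.932). For Hist1h1b the nearest was Hist1h1a (0.975), and for H2afx the next after Hist1h1e was Smc4 (0.950). The libraries share samples and the clusters were made from these genes, so r is a description.

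Single barcodes were compared after each was thinned to 10000 UMIs, which left out 25 shallower barcodes of cluster 2 and 437 of the others. The median barcode of cluster 2 held 11 replication-dependent histone UMIs, with quartiles of 8 and 16 and a highest value of 84. Medians were 9 in cluster 4, 5 in cluster 0, 4 in cluster 3 and 2 in cluster 1. In cluster 0, 18.5% of barcodes reached the cluster 2 median, in cluster 4 33.8% and in cluster 1 0.36%, so the clusters overlapped in this measure.

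Hist1h1e had a UMI in 76.9% of cluster 2 barcodes, 66.3% in cluster 4, 41.1% in cluster 0 and 15.6% in cluster 1. Cdc6 had one in 11.5% of cluster 2 barcodes, against 23.8% in cluster 4, 39.8% in cluster 0 and 28.2% in cluster 1. For background from free RNA, the Sertoli gene Sox9 had a UMI in 0.49% of cluster 2 barcodes and Pf4, listed with the macrophage markers, in 0.65%, all thinned to the same depth. Within cluster 2, histone UMIs were higher where S phase list UMIs were higher (Spearman rho = 0.36 over 615 barcodes, 0.12 to 0.39 within libraries) and were lower where G2/M list UMIs were higher (-0.26, from -0.36 to -0.08). Both were taken from the same 10000 UMIs of a barcode.

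**Figure D4:**
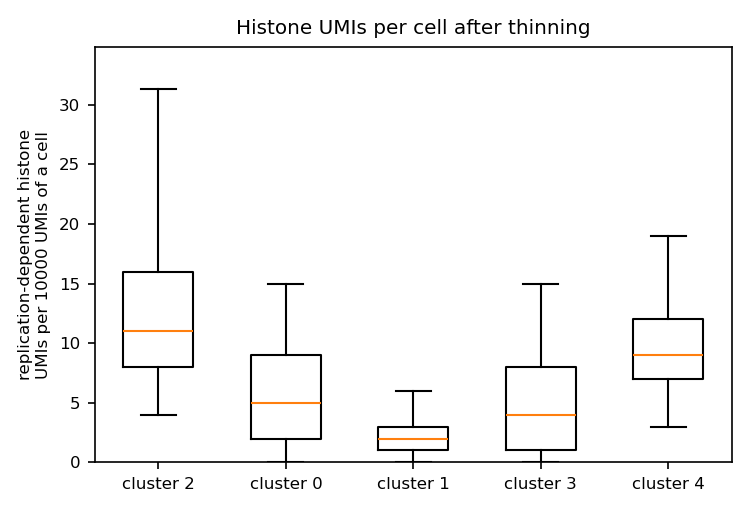
Replication-dependent histone UMIs per barcode after thinning to 10000 UMIs (vertical axis) by author cluster (horizontal axis); boxes are quartiles with the median, and whiskers the 5th and 95th percentiles over barcodes. The median is 11 in cluster 2, 9 in cluster 4 and 2 in cluster 1, and the boxes of clusters 2 and 4 overlap.

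Between genotypes, the first value is that of the targeted gene. Rb1, on chromosome 14 from 73183673 to 73325822, had 10, 5 and 24 UMIs in cluster 2 of control samples, and 2, 3 and 5 in the cKO samples. As CPM these were 8.42, 5.64 and 9.45 against 1.75, 1.504 and 2.23, with no overlap. The means were 7.84 ± 1.97 and 1.83 ± 0.371 (SD, n = 3 each; exact two-sided permutation test p = 0.1, the smallest that 3 against 3 allows). In the other clusters Rb1 stood at 8.74 ± 2.11 and 3.89 ± 0.223 CPM. Counts were too low for the filter of the fit within cluster 2. Without the filter, edgeR gave a log2 fold change of -2.12 ± 0.53 (SE) with an adjusted p of 0.217. The 3′ tags may lie outside the deleted exons, and then they do not check the deletion.

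Cluster 2 made up 9.57%, 10.5% and 13.1% of barcodes in controls, and 13.5%, 14.2% and 12.2% in the cKO samples. Control 3 lay among the cKO samples. The means were 11.1% ± 1.86 and 13.3% ± 1.04, a difference of 2.27 percentage points (SD, n = 3 each; exact two-sided permutation test p = 0.2). The difference was larger than either SD, but the groups overlapped. Depth differed between genotypes by less than the spread between samples: the mean of the median UMIs per barcode was 16284 in controls and 16002 in cKO samples (exact permutation p = 1).

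No gene passed the threshold between genotypes within cluster 2. edgeR tested 7895 genes on the summed counts and called 0 at an adjusted p below 0.05, a share of 0%, with a smallest adjusted p of 0.9996. At an unadjusted p below 0.05 there were 319 genes, 4.04% of those tested, 149 higher in the cKO samples and 170 lower. DESeq2 also called 0. Leaving out control 3 gave 2 calls, and removing the filter gave 3, Gm13225, Rpgrip1 and Rpl27. In the other 4 clusters, edgeR called 0 of 11346 genes.

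The 10 genes of smallest p, none past the threshold, were all lower in the cKO samples. All 10 had no overlap between groups, as had 9.34% of genes tested in either direction and 4.86% with the cKO samples lower. The 10 were picked by p from these same samples, which favours genes without overlap, so the lack of overlap is no further evidence. Values below are CPM scaled by TMM factors (scaled CPM). Rpl27, of the large ribosomal subunit, had 1405, 1737 and 1393 scaled CPM in controls, and 1075, 953 and 1266 in the cKO samples, a log2 fold change of -0.46 ± 0.11 (SE; edgeR adjusted p = 0.9996). In the other clusters its fold change was -0.40. Mrps28, of the mitochondrial ribosome, had 146, 150 and 174 scaled CPM in controls, and 108, 118 and 110 in the cKO samples (-0.49 ± 0.12), with -0.32 in the other clusters.

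Cd47, which codes for a cell surface signal that inhibits phagocytosis, had 23.9, 21.5 and 21.3 scaled CPM in controls, and 14.6, 11.6 and 8.23 in the cKO samples. Its log2 fold change was -0.998 ± 0.26 in cluster 2 and -0.13 in the other clusters. The difference between these, -0.93, had an edgeR adjusted p of 0.567 and was not called. Col18a1, a basement membrane collagen gene, had -1.01 ± 0.26 in cluster 2 and -0.17 elsewhere, with an adjusted p of 0.989 for the difference by edgeR. The other 6 of these genes were Ppcs, of coenzyme A synthesis, Nme2, a nucleoside diphosphate kinase gene, Qtrt1, of tRNA modification, Fam25c, Fam160b1 and Gm8797, with log2 fold changes between -1.03 and -0.63.

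The markers of the cluster did not separate the genotypes. Hist1h1e had a log2 fold change of 0.15 ± 0.13 (SE), Hist1h1b of 0.04 ± 0.11 and H2afx of 0.04 ± 0.11, each with an edgeR adjusted p of 0.9996 and overlapping samples. The sign for Hist1h1b and H2afx turned when single samples were left out.

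The histone sum was 1328, 1293 and 1079 CPM in controls, and 1574, 1372 and 1493 CPM in the cKO samples. Control 3 was lowest and cKO 1 highest, and the groups did not overlap, with means of 1233 ± 135 and 1479 ± 102 CPM. The other clusters of the same samples had 368, 472 and 477 CPM in controls, and 486, 449 and 493 CPM in the cKO samples, and these did overlap. No p is given for a sum over a chosen list.

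Of the 69 histone genes, 33 passed the filter, 23 had a positive fold change, 10 a negative one and 0 were called. Their median log2 fold change was 0.32, against -0.01 over all genes tested and 0.10 for the same 33 genes in the other clusters. The edgeR test of the difference between cluster 2 and the other clusters called 0 of 53 histone genes, with a median of 0.19 over the same 33. Samples did not overlap for 3 of the 33, all higher in the cKO samples, while 4.47% of genes tested were. At an unadjusted p below 0.05 there were 7, all higher, against 4.04% of genes tested. The one of smallest p was Hist1h2bm, with 36.6, 33.9 and 29.1 scaled CPM in controls, and 72.3, 38.3 and 52.1 in the cKO samples, a log2 fold change of 0.70 ± 0.22 (edgeR adjusted p = 0.9996). In the other clusters it was 0.10, and the difference, 0.64, had an edgeR adjusted p of 0.989 and was not called.

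Genes that handle histone mRNA had small positive values, 12 of 15, with a median of 0.11 and 0 called. Slbp had 0.18 ± 0.09 in cluster 2 and 0.29 in the other clusters. Lsm10, of the particle that cuts histone pre-mRNA, had 59.6, 58.8 and 51.2 scaled CPM in controls, and 71.4, 72.5 and 71.3 in the cKO samples (0.36 ± 0.14). Lsm1, of mRNA decay, had 0.16 ± 0.12. Among replacement histones H3f3b was at 0.08 ± 0.12, H2afz at 0.12 ± 0.09 and Cenpa at -0.40 ± 0.16. Chaperone genes had a median of 0.02, with Npm1 at -0.03 ± 0.09, Hmgb2 at 0.04 ± 0.09 and Rbbp7 at 0.19 ± 0.11.

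S phase and E2F target genes showed small values in cluster 2. The S phase list had 29 of 43 positive and a median of 0.07, where the other clusters had 43 of 43 and 0.20. E2F targets had 25 of 45 positive and a median of 0.02, and in the other clusters 44 of the same 45 and 0.16. The interaction fit, which tests the difference between the cluster 2 effect and that of the other clusters of the same samples, called 0 members of either list, with medians of -0.10 and -0.12 over the same genes.

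Hells, a chromatin remodeller, had 0.13 ± 0.10 in cluster 2. Brip1, a helicase of DNA repair, had 13.6, 10.2 and 19.2 scaled CPM in controls, and 19.8, 25.7 and 30.2 in the cKO samples, a log2 fold change of 0.74 ± 0.25. Prim2, the second primase subunit, had 0.40 ± 0.17, and its samples did not overlap. Cdc6 and Gins2, the low genes of the cluster, stood at -0.14 ± 0.29 and 0.07 ± 0.36. None of these passed the threshold.

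Condensin, cohesin and topoisomerase II genes summed to 2608, 2573 and 2436 CPM in controls, and 2766, 2754 and 2870 CPM in the cKO samples, with no overlap. The other clusters did not overlap either, with 1828, 1891 and 1835 CPM in controls, and 2051, 2034 and 2047 CPM in the cKO samples. Within the group 12 of 15 were positive, with a median of 0.10 in cluster 2 and 0.17 in the other clusters, and 0 were called. Smc4 had 350, 317 and 297 scaled CPM against 392, 402 and 365 (0.27 ± 0.10). The G2/M list had a median of 0.01, with Tubb4b, a beta tubulin, at 0.07 ± 0.10.

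Among G1 regulators, Cdk4 had 0.05 ± 0.09, Ccnh, a cyclin of the CDK-activating kinase, -0.01 ± 0.14 and Mycn -0.20 ± 0.14, and the list median was -0.04. Of 11 CDK inhibitor and pocket protein genes, 7 passed the filter, which Rb1 did not. Of the 7, 6 were positive, with a median of 0.32, against 0.23 for the same genes in the other clusters. The 2 with the most counts were Cdkn2a, at 0.23 ± 0.18, and Cdkn1c, at 0.39 ± 0.18, and samples of both overlapped.

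Of the meiosis genes, 14 of 17 were positive, with a median of 0.27 in cluster 2 and 0.22 for the same genes in the other clusters. Smc1b had 264, 270 and 209 scaled CPM in controls, and 292, 324 and 336 in the cKO samples (0.37 ± 0.11), with 0.41 in the other clusters. Syce2, a central element protein of the synaptonemal complex, had -0.04 ± 0.10.

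Pluripotency and primordial germ cell genes had 20 of 24 negative, with a median of -0.15, against -0.12 for the same genes in the other clusters. Dppa5a had -0.14 ± 0.09, Dppa3 -0.01 ± 0.09 and Gdf3, a TGF-beta family ligand, -0.39 ± 0.16 with no overlap. Such lower values without overlap were found for 3 of the 24, and for 4.86% of all genes. In the Nodal pathway, the ligand Nodal had -0.65 ± 0.29 and its antagonists Lefty1 and Lefty2 had 0.10 ± 0.12 and -0.20 ± 0.12.

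Lists for later germ cell steps had medians of 0.08 for piRNA and de novo methylation and -0.05 for spermatogonial genes. Dazl had 0.12 ± 0.09, Fkbp6 0.04 ± 0.12, Tex101 0.88 ± 0.36, Utf1 -0.07 ± 0.08, Lhx1 -0.04 ± 0.15 and Sohlh2 0.29 ± 0.17. The p53 and apoptosis list had a median of -0.07, with Rps27l at -0.07 ± 0.09, Bax at -0.06 ± 0.10 and Aen at 0.29 ± 0.16. None of the genes on these lists was called by edgeR.

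Energy and translation lists had small median fold changes. Ribosomal protein genes had 70 of 83 negative and a median of -0.06, with Rps18 at -0.06 ± 0.07 and Rpl13 at -0.01 ± 0.08. Nuclear-encoded oxidative phosphorylation genes had 60 of 79 negative and a median of -0.07, the same as in the other clusters, with Cox7c at -0.07 ± 0.12, Atp5b at -0.01 ± 0.07 and Uqcc2 at -0.26 ± 0.08. Samples did not overlap for 12 of the 79, all lower in the cKO samples, a larger share than the 4.86% of all genes tested. In the other clusters, 6 of the same 79 genes were positive. Mitochondrially encoded mRNAs had a median of 0.01, with mt-Co3 at 0.02 ± 0.08, mt-Atp6 at 0.01 ± 0.08 and mt-Nd4l at 0.19 ± 0.26. Glycolysis genes had a median of -0.02, with Pkm at -0.02 ± 0.09, Gapdh at -0.03 ± 0.10 and Slc2a3 at -0.59 ± 0.29. For immediate early and heat shock genes the median was 0.06, with Hsp90aa1 at 0.05 ± 0.07, Hsp90ab1 at -0.02 ± 0.07 and Ier2 at 0.29 ± 0.21.

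**Figure D5:**
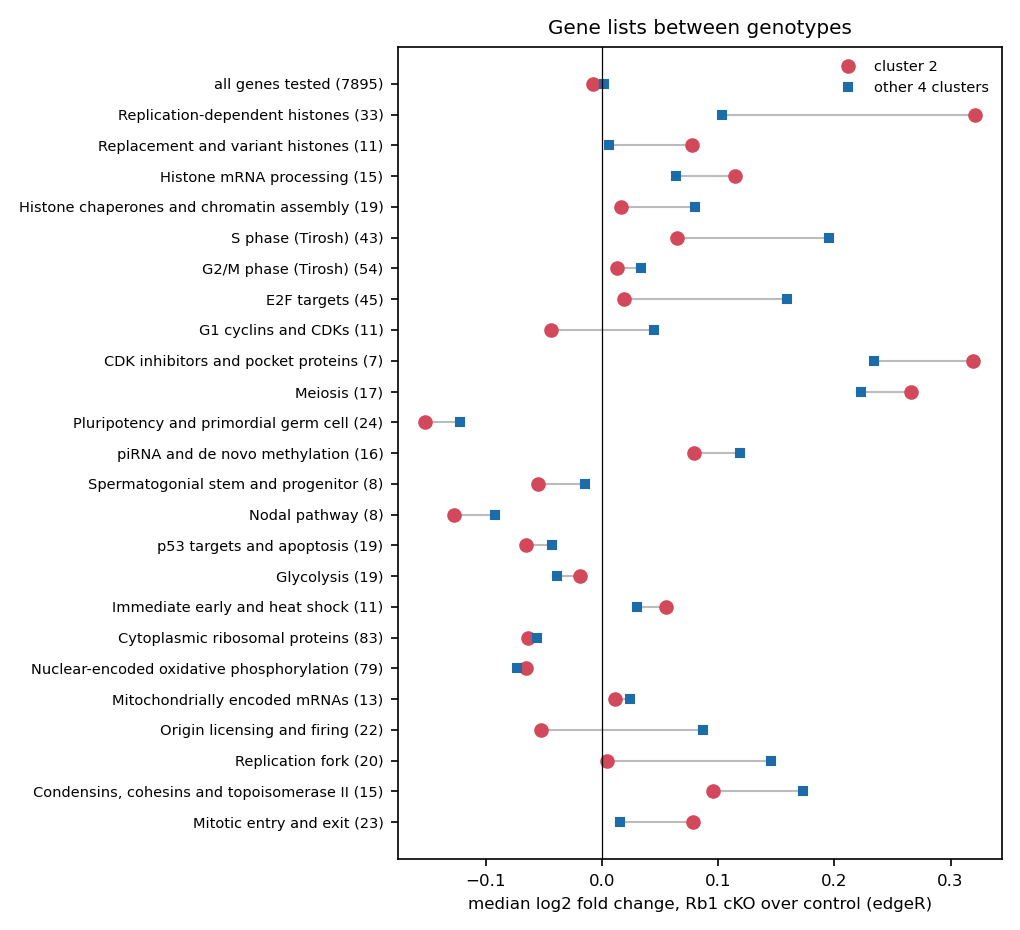
Median log2 fold change of Rb1 cKO over control (horizontal axis) for each gene list and for all genes tested (vertical axis, with the number of genes tested), in cluster 2 (red circles) and, over the same genes, in the sum of the other 4 clusters (blue squares). The histone median is 0.32 in cluster 2 and 0.10 elsewhere, and the E2F target median 0.02 and 0.16. In cluster 2 and in the test of the difference, 0 members of any list were called.

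The genotype effect in cluster 2 differed from that in the other clusters for 1 gene of 10487 tested, or 0.00954%. This was 4930548H24Rik, a gene of unnamed function on chromosome 5 from 31485740 to 31488476, with an interaction log2 fold change of 2.21 ± 0.37 (SE; edgeR adjusted p = 0.000185). It had 5, 0 and 14 UMIs in cluster 2 of control samples, and 37, 9 and 31 in the cKO samples. These came from 37 barcodes, of which 1, in cKO 1, held 32 UMIs. Without control 3 the interaction was 1.75 with an edgeR adjusted p of 0.733, and DESeq2 gave an adjusted p of 0.99999, so the call was lost in both. The next genes by p, not called, were Nutf2-ps1 and Dqx1, with 17 and 11 barcodes of cluster 2 holding a UMI, and Calr, an endoplasmic reticulum chaperone gene found in 635. Calr had an interaction log2 fold change of -0.23 ± 0.06 (edgeR adjusted p = 0.319), from -0.22 in cluster 2 and 0.01 in the other clusters. The other 6 of the 10 of smallest p were Dtnbp1, Pja2, Ptcra, Senp6, Cd47 and Prdx1, with adjusted p from 0.430 to 0.654 by edgeR.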

How the data were processed

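The deposited table holds UMI counts, whole numbers per gene symbol and barcode, for 27998 genes in 5160 barcodes of 6 samples. Per the submitters' processing notes, the authors used Cell Ranger and Seurat 3.0 with the build mm10, and a deposited annotation lists the sample and cluster of every barcode. The counter's annotation release and the cell filters were not given in the sources used here. Histone genes were found by symbol, and positions come from GENCODE M21.

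Counts were summed per sample over cluster 2, over each other cluster and over the other 4 together. CPM divides by the summed library, and log2 ratios add 0.5 CPM. Genotypes were compared with edgeR 4.0.16 in R 4.3.3 (quasi-likelihood test, robust, filterByExpr, TMM factors, two-sided), with Benjamini-Hochberg adjustment over all genes tested and a threshold of 0.05. The interaction used 12 libraries with the sample as a block. Standard errors were taken as the fold change over the root of F. DESeq2 1.42.0 was an alternative. Values per sample were compared by exact permutation tests over 20 labelings. Scrublet (scanpy 1.11.5) marked doublets, which were kept. The fits were tested on simulated data.

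Named genes are the 3 markers, the 25 highest and 10 lowest by ratio at 20 CPM or more that agreed in 6 of 6 samples, the 10 of smallest p in each fit, Rb1, 3 members of each list and the 5 genes most like each marker. Further members of cell-cycle and chromatin groups, and the 4 groups themselves, were chosen after their values were seen. The cluster, the lists and the genes were chosen with earlier results of these data known. Alternatives were another scaling, test, filter or set of barcodes, a replicate block and leaving out each sample.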

Additional observations from a re-analysis of the deposited data

Results flagged for a closer look

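The effect of genotype on 4930548H24Rik differed between cluster 2 and the other clusters by a test of the difference itself, with an interaction log2 fold change of 2.21 (edgeR adjusted p = 0.000185). In cluster 2 it had 5, 0 and 14 UMIs in controls, and 37, 9 and 31 in the cKO samples. In the other clusters its log2 fold change was -0.04. DESeq2 gave 2.49 with an adjusted p of 0.99999, and without control 3 edgeR gave 1.75 with an adjusted p of 0.733. Under the other alternatives that tested the gene, edgeR's adjusted p lay between 1.94e-09 and 0.0253. A single barcode held 32 of the UMIs of cluster 2, and it belongs to cKO 1, the only sample with at least as many UMIs of the gene there. Without cKO 1 the interaction was 1.79 with an edgeR adjusted p of 0.0197.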

How the results depend on the processing

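Within cluster 2, edgeR called 0 genes under another scaling, a filter at 20 CPM, no doublets and barcodes of at least 10000 UMIs, DESeq2 also called 0, and edgeR called 3 with no filter. Leaving out 1 sample gave 0 to 2 calls. The interaction call became 0 with DESeq2, 0 with the filter at 20 CPM and 3 with no filter (4930548H24Rik, Dqx1 and Ptcra). Leaving out 1 sample gave 1 to 7 calls: 7 without control 1, 5 without cKO 1, 3 without control 2, 2 without control 3 or cKO 2. The cause was not tested. The histone log2 ratio was 1.19 with each other cluster weighted equally, since cluster 4 then counts as much as cluster 1, and 1.51 to 1.64 when a sample was left out. The share difference was 1.52 to 3.31 percentage points when a sample was left out.

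Replicate numbers did not pair the samples: deviations of same-numbered samples in cluster 2 correlated at -0.16, 0.16 and 0.07 over 4940 genes. With the replicate block, edgeR called 0 genes within cluster 2 and 2 in the interaction, 4930548H24Rik and Dqx1.

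Signs of small fold changes turned. With no filter Atp5b, Ccnh, Dppa3 and Rpl13 were at 0.0056, 0.0008, 0.0081 and 0.0053, and the Ptcra interaction was 0.0149 with DESeq2. When a sample was left out, the lowest and highest log2 fold changes were -0.024 and 0.023 for Atp5b, -0.17 and 0.050 for Bax, -0.10 and 0.081 for Ccnh, -0.013 and 0.097 for Cdk4, -0.011 and 0.39 for Cdkn2a, -0.19 and 0.038 for Cox7c, -0.080 and 0.060 for Dppa3, -0.058 and 0.16 for Fkbp6, -0.13 and 0.063 for Gapdh. They were -0.041 and 0.19 for H2afx, -0.0055 and 0.25 for H3f3b, -0.018 and 0.13 for Hist1h1b, -0.028 and 0.12 for Hmgb2, -0.059 and 0.0032 for Hsp90ab1, -0.014 and 0.24 for Lefty1, -0.18 and 0.10 for Lhx1, -0.11 and 0.040 for Npm1, -0.099 and 0.076 for Pkm, -0.081 and 0.031 for Rpl13. They were -0.12 and 0.040 for Rps27l, -0.10 and 0.084 for Syce2, -0.036 and 0.14 for Tubb4b, -0.052 and 0.072 for mt-Atp6, -0.036 and 0.069 for mt-Co3, -0.14 and 0.42 for mt-Nd4l, and -3.06 and 5.33 for the Ptcra interaction.

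Control 2 gave 45 barcodes, which limits genes of few UMIs such as Rb1.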

Other observations

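Ribosomal protein genes had a median log2 ratio of 0.00 over 83 genes and oxidative phosphorylation genes of 0.03 over 80, of which 12 were higher in cluster 2 than in the other clusters in 6 of 6 samples (10.4% of all genes). Pluripotency and primordial germ cell genes had a median of -0.06, with 8 of 25 lower in 6 of 6 samples (12.5% of all genes) and 1 higher (10.4%). The p53 and apoptosis list had the lowest median of the pathway lists, -0.23 over 21 genes. Of these, 5 were lower in 6 of 6 samples (12.5% of all genes) and 0 higher (10.4%). The list summed to 3250 ± 178 CPM in cluster 2 and 3343 ± 152 in the other clusters together. By cluster it had 3337 CPM in cluster 0, 3266 in cluster 1, 3313 in cluster 3 and 5191 in cluster 4. G1 cyclins and CDKs summed to 939 ± 34.6 CPM in cluster 2 against 1037 ± 32.3, lower in 6 of 6 samples. H1f0, a replacement linker histone, had 23.1 ± 6.68 CPM against 12.03, higher in 5 of 6 samples.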
